A study of Danio rerio with 12 samples.

Results

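The collagen genes of the adult zebrafish whole kidney marrow were described in bulk RNA sequencing libraries of 4 genotypes. The members are the genes whose symbol reads col, a number, a and a number, with or without a paralogue letter. Of 32105 gene IDs in the count table, 56 carried such a symbol, and 39 of these had a mean of at least 0.5 CPM (read counts scaled to a common library size) over the 12 libraries and were kept. They fall into 13 fibrillar collagens, 9 basement membrane collagens (types IV, XV and XVIII) and 17 others, of which 7 belong to the fibril-associated collagens and their relatives (FACIT), 4 to the beaded filament type VI and 3 to the network-forming types VIII and X, with 1 anchoring, 1 transmembrane and 1 type XXVIII gene. Just inside the level limit lay col14a1b at 0.633 CPM and col5a3b at 0.652 CPM, and just outside it a second COL2A1 (ENSDARG00000069093) at 0.493 CPM and a second col19a1 (ENSDARG00000096073) at 0.463 CPM. Symbols in capitals, such as COL4A1, are zebrafish genes for which the name table gives the human-style symbol.

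Kidneys came from mutants of prkdc (allele D3612fs), mutants of il2rga (Y91fs), double mutants that carry both alleles, and wild-type fish. The series' design text gives these alleles for its mutants and the casper strain for the wild-type fish of its single-cell experiments. The sources used here state no age, sex or zygosity. Each of the 4 genotypes has 3 libraries, and each library is the poly(A) RNA of 1 animal's dissected kidney, so p-values measure the spread between animals. Prkdc encodes the catalytic subunit of a DNA repair kinase needed to join antigen receptor gene segments, and il2rga encodes the common gamma chain of interleukin receptors; both losses are known as immunodeficiencies.

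Collagens are secreted proteins in which chains wind into a triple helix. Fibrillar collagens form the load-bearing fibres of connective tissue, type IV collagens form the sheet under epithelia, endothelia and the kidney filter, and the other types link fibres, cells and sheets. In the fish, the kidney holds the blood-forming marrow among the nephrons, so collagens here can come from marrow stroma, vessel walls, tubules, glomeruli and the kidney capsule. In bulk RNA, fewer cells of a type and less RNA per cell cannot be told apart.

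The libraries held 4756244 to 10311377 counts. The level of il2rga followed its label, at 1.71 to 6.17 CPM in the 6 libraries with the il2rga mutation and 34.2 to 61.5 CPM in the 6 others. The level of prkdc was 16.04 to 23.4 CPM in the 6 libraries with the prkdc mutation and 22.1 to 62.9 CPM in the 6 others, so that il2rga mutant 3, at 22.1 CPM, lay within the range of the mutated libraries. All 3 il2rga mutants, at 34.25, 32.36 and 22.12 CPM, had less prkdc than any wild-type fish, at 50.05, 54.08 and 62.85 CPM. Liver transcripts, as the mean log2 CPM of 22 plasma protein and related genes, were 6.07, 7.34 and 2.58 in il2rga mutants 1 to 3 and 8.54, 6.62 and 5.47 in double mutants 1 to 3, against 1.63 to 2.42 in prkdc mutants and 1.79 to 3.13 in wild type. A list of 67 genes with very long transcripts, none of them a collagen, had a mean log2 CPM of 5.45 to 5.95 in il2rga mutants and 5.51 to 5.75 in double mutants, against 6.40 to 6.43 in prkdc mutants and 6.58 to 6.63 in wild type. Wild type 2 stood apart from its group in skeletal muscle transcripts, which summed to 1065 CPM against 20.2 and 29.6 CPM in wild type 1 and 3. Ovary and yolk transcripts, as the mean log2 CPM of 18 genes, were 7.88, 4.53 and 0.51 in double mutants 1 to 3. They were 2.85, 2.06 and -0.58 in il2rga mutants 1 to 3, -0.62 to 1.16 in prkdc mutants and -0.90 to 1.72 in wild type. The part of liver tissue, of ovary, of RNA quality and of muscle in the collagen results below was not tested beyond the values given with them.

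As a check of the label, 18 of the 22 stromal genes in the table were measurable, with a mean log2 CPM of 3.48 to 4.36 over the libraries. Their median log2 fold changes against wild type were 0.34 (prkdc mutants, 2 of 18 below 0), 0.47 (il2rga mutants, 6 of 18) and 0.30 (double mutants, 7 of 18). These lay above 0, whereas the collagen medians given below, -0.22, -1.08 and -1.21 in that order, lay under it. The list's direction depended on the measure. Its mean log2 CPM averaged 4.23, 4.14 and 3.77 in that order, beside 3.81 in wild type. Its summed CPM averaged 4638, 2773 and 2848, beside 3354 in wild type. For double against prkdc mutants the list's median was -0.54. Most of the list's summed CPM came from 1 gene: in wild type 1 to 3 CXCL12 had 2462, 2815 and 3679 of 2791, 3145 and 4126 CPM. CXCL12, the chemokine that holds blood progenitors in their niche, ranged over the libraries of each genotype as 2884 to 4856 CPM (prkdc mutants), 1889 to 2984 CPM (il2rga mutants), 2149 to 2796 CPM (double mutants) and 2462 to 3679 CPM (wild type), so this stromal gene was abundant in every library. Podocyte, endothelial and smooth muscle lists were also expressed in every library, and the counts do not say which of these cells made a given collagen transcript.

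Most collagens had lower levels in the il2rga and double mutants than in wild type, and the type IV genes of basement membranes made up all 3 calls in il2rga mutants and 4 of the calls in double mutants against wild type and 4 against prkdc mutants. A gene was called at an adjusted p under 0.05 in edgeR's quasi-likelihood test, with Benjamini and Hochberg's adjustment over all 18370 genes tested. Of the 39 members 35 passed the filter on low counts and were tested; COL11A1, col5a2b, col5a3b and col14a1b were not. In il2rga mutants against wild type, 3 collagens fell and none rose, where 3.59% of all genes tested fell and 2.22% rose. Double mutants against wild type had 9 collagens that fell and none that rose, where 7.51% of all genes fell and 6.80% rose. Double mutants against prkdc mutants had 8 that fell and none that rose, where 6.86% of all genes fell and 7.93% rose. Leaving out 1 library moved these counts to between 0 and 12, 1 and 22, and 1 and 17. The calls over all genes moved as well, from 1066, 2628 and 2717 to between 160 and 1565, 490 and 3268, and 382 and 2946. The highest collagen count of each comparison came without double mutant 3. The lowest came without wild type 1 or 3 or il2rga mutant 2 or 3, without double mutant 1 or wild type 3, and without double mutant 1.

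The direction was shared beyond the called genes. The log2 fold change was below 0 for 32 of 35 collagens in il2rga mutants against wild type, with a median of -1.08 beside 0.06 over all genes, of which 46.5% lay below 0. For double mutants against wild type it was below 0 for 33 of 35, with a median of -1.21 beside 0.05 and 47.4% of all genes. For double mutants against prkdc mutants it was below 0 for 33 of 35, with a median of -1.05 beside 0.03 and 48.4% of all genes. The 3 il2rga mutants were each under the lowest wild-type fish for 21 of 35 collagens, where 16% of all genes tested did so. The same held for 16 of 35 in double mutants against wild type, where 17.8% of all genes did so.

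In prkdc mutants against wild type, none of the 35 collagens was called by edgeR, as was none of all genes (0.00%). At an unadjusted p under 0.05 there was 1 collagen, beside 5.73% of all genes, and DESeq2 and limma voom called 0 collagens. The median log2 fold change was -0.22, with 24 of 35 below 0 beside 49.9% of all genes. Between double and il2rga mutants edgeR again called 0 collagens, where it called 0.00% of all genes, with 2 at an unadjusted p under 0.05 (9.62% of all genes) and 0 by DESeq2 or limma voom, and the median was -0.10. The interaction, which asks whether the difference of double from il2rga mutants departs from that of prkdc mutants from wild type, called 0 collagens (0.00% of all genes), with 2 at an unadjusted p under 0.05 (6.11% of all genes) and 0 by the other tools. Of all 18370 genes DESeq2 called 72 between double and il2rga mutants and 49 for the interaction, and limma voom called 0 in both. With so few calls, these zeros say little of the collagens.

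**Figure D1:**
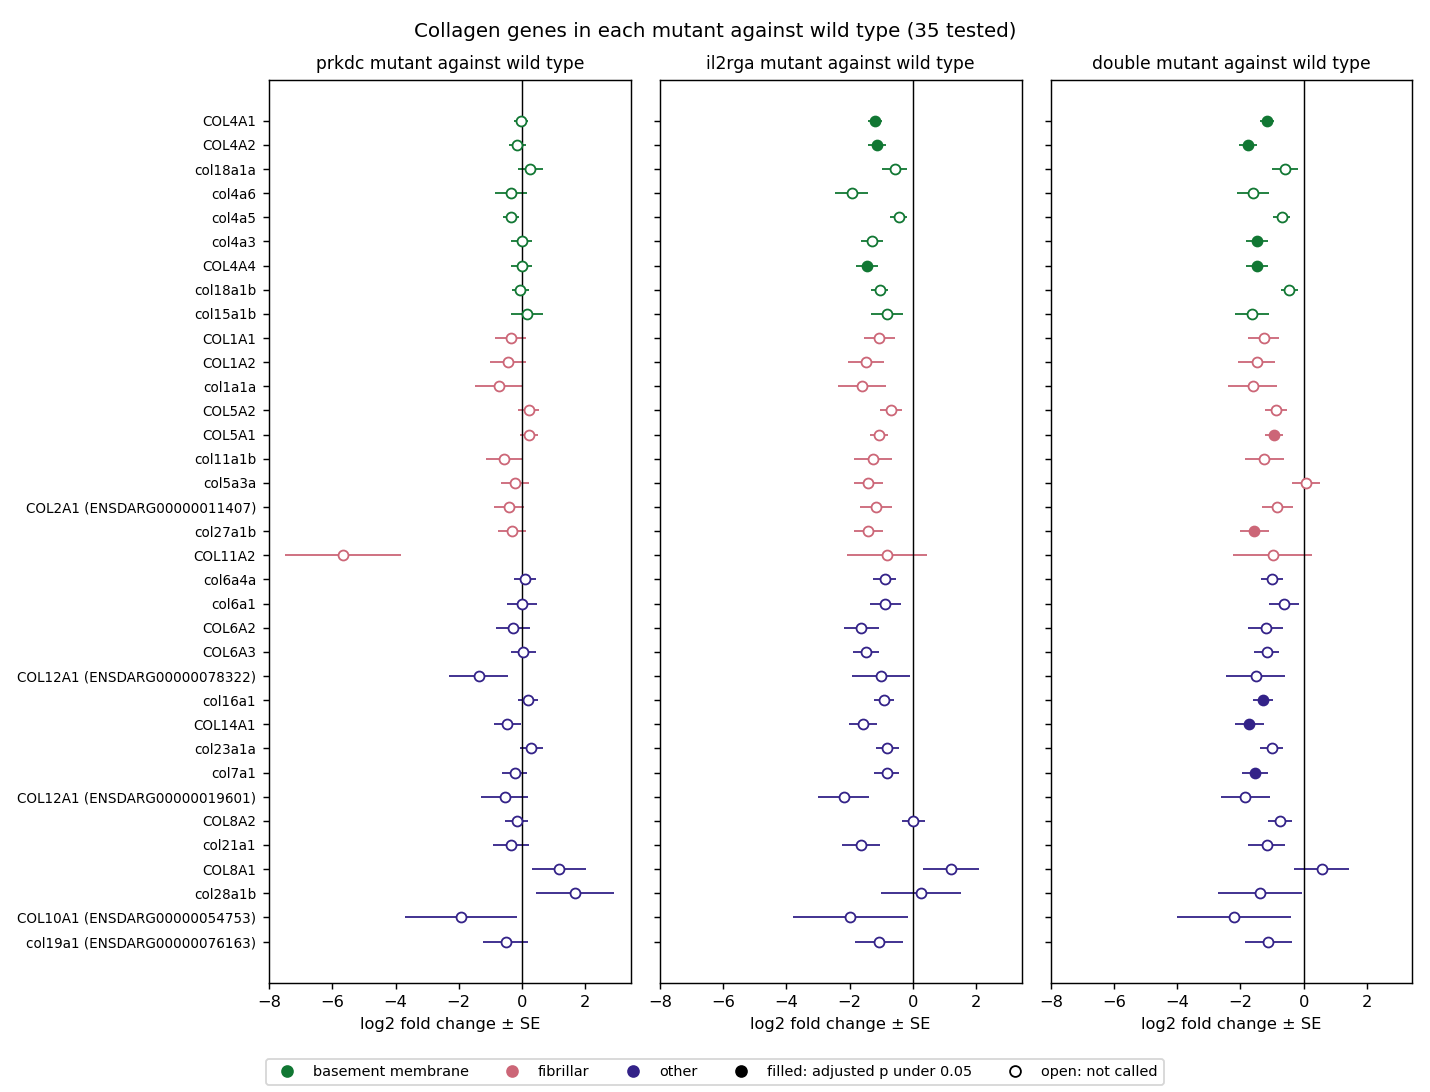
Each point is the log2 fold change of 1 collagen gene in prkdc, il2rga or double mutants against wild type, for the 35 genes tested. Its bar is the standard error worked back from the fold change and the test's F statistic. Colours give the class and filled points passed an adjusted p under 0.05. Most points lie left of 0 in il2rga mutants (32 of 35) and double mutants (33 of 35), whereas in prkdc mutants they lie around 0 (24 of 35 below it); COL11A2, far left in prkdc mutants, rests on 1 count in that group.

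Type IV collagen is the scaffold of basement membranes. COL4A1 and COL4A2 encode the chains found in nearly all of them. In mammals the chains of the orthologues of col4a3, COL4A4 and col4a5 form the network of the glomerular filter, and that of col4a6 pairs with the col4a5 chain around smooth muscle and Bowman's capsule. All 6 genes were members, and all 6 had log2 fold changes below 0 in il2rga and in double mutants against wild type, with medians of -1.25 and -1.48. For prkdc mutants against wild type the median was -0.08 and edgeR called none of them.

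COL4A1 (ENSDARG00000055009) had 280.3, 253 and 200 CPM in prkdc mutants 1 to 3, 124, 102 and 99.6 CPM in il2rga mutants 1 to 3, 89.4, 106 and 138 CPM in the double mutants 1 to 3, and 266, 192 and 287 CPM in wild type 1 to 3. All 6 libraries with the il2rga mutation lay below all 6 without it. The log2 fold change was -1.20 ± 0.23 (SE) in il2rga mutants against wild type (edgeR quasi-likelihood test, adjusted p = 0.0160), -1.16 ± 0.23 in double mutants against wild type (adjusted p = 0.0127) and -1.14 ± 0.23 in double mutants against prkdc mutants (adjusted p = 0.0148). In prkdc mutants against wild type it was -0.02 ± 0.22.

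COL4A2 (ENSDARG00000104110), its partner chain, had 133, 102 and 107 CPM in prkdc mutants, 79.8, 46.4 and 46.8 CPM in il2rga mutants, 24.7, 48.1 and 37.7 CPM in the double mutants, and 127, 112 and 137 CPM in wild type. Again the 6 libraries with the il2rga mutation did not overlap the 6 others. In double mutants it had the smallest adjusted p of the collagens, at -1.77 ± 0.28 log2 against wild type (edgeR quasi-likelihood test, adjusted p = 0.00612) and -1.63 ± 0.28 against prkdc mutants (adjusted p = 0.00959), and in il2rga mutants it was -1.12 ± 0.28 (adjusted p = 0.0400). Double mutants averaged 36.8 ± 11.8 CPM and il2rga mutants 57.7 ± 19.2 CPM (SD, n = 3 each), a difference of -0.64 ± 0.28 log2 that was not called (edgeR adjusted p = 0.512).

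The pair col4a3 and COL4A4 had like fold changes. In col4a3 (ENSDARG00000003395) the levels were 29.3, 29.6 and 17.4 CPM in prkdc mutants, 13.9, 10.04 and 7.02 CPM in il2rga mutants, 5.57, 8.60 and 13.3 CPM in the double mutants, and 26.6, 22.4 and 27.2 CPM in wild type. COL4A4 (ENSDARG00000002831) had 20.3, 13.1 and 10.7 CPM in prkdc mutants, 6.51, 5.98 and 3.62 CPM in il2rga mutants, 3.75, 4.50 and 7.64 CPM in the double mutants, and 13.4, 14.7 and 15.9 CPM in wild type. In both genes the 6 libraries with the il2rga mutation lay below the 6 without it. Both fell by 1.48 ± 0.35 log2 in double mutants against wild type (edgeR quasi-likelihood test, adjusted p = 0.0237 for col4a3 and 0.0238 for COL4A4) and by 1.48 ± 0.35 against prkdc mutants (adjusted p = 0.0239 for both). In il2rga mutants against wild type COL4A4 fell by 1.44 ± 0.35 (adjusted p = 0.0382), whereas col4a3, at -1.30 ± 0.35, missed the threshold (adjusted p = 0.0525).

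The last pair differed within itself. In col4a6 (ENSDARG00000052061) the levels were 37.1, 42.5 and 44.9 CPM in prkdc mutants, 11.98, 11 and 18.3 CPM in il2rga mutants, 6.82, 10.4 and 35.3 CPM in the double mutants, and 72.2, 41.4 and 44.0 CPM in wild type. The 6 libraries with the il2rga mutation lay below the 6 others, though double mutant 3 came close to prkdc mutant 1. The log2 fold change was -1.94 ± 0.52 in il2rga mutants (edgeR quasi-likelihood test, adjusted p = 0.0523) and -1.59 ± 0.51 in double mutants against wild type (adjusted p = 0.0579), and neither was called. The gene col4a5 (ENSDARG00000052063) had 28.3, 20.7 and 28.1 CPM in prkdc mutants, 28.4, 21.04 and 22.6 CPM in il2rga mutants, 12.8, 23.6 and 24.1 CPM in the double mutants, and 38.3, 27.9 and 31.9 CPM in wild type. Its groups overlapped in il2rga mutants against wild type, where the log2 fold change was -0.45 ± 0.26.

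**Figure D2:**
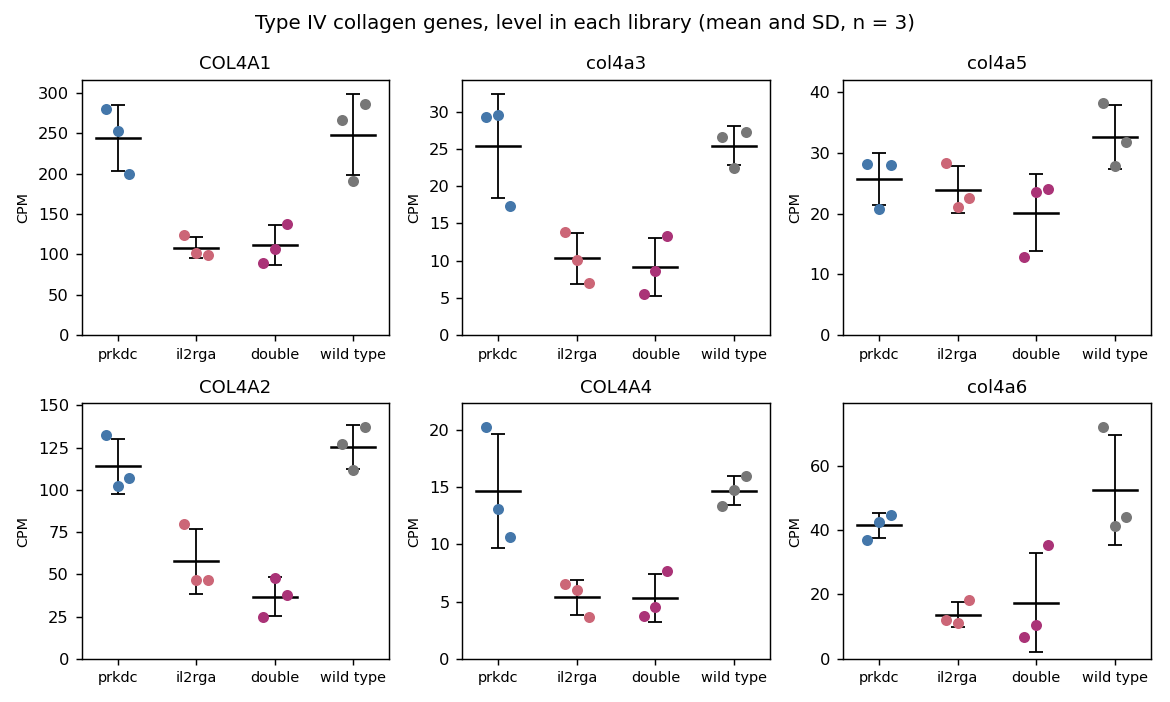
Each panel plots 1 type IV collagen gene in CPM on an axis from 0, with 1 point a library, the group mean as a line and the SD as bars (n = 3). COL4A1, COL4A2, col4a3 and COL4A4 separate the il2rga and double mutants from the prkdc mutants and wild type without overlap, col4a6 does so narrowly, col4a5 overlaps between groups, and double mutant 3 is the highest of its group in 5 of the 6 genes.

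Type XVIII and type XV collagens carry sugar chains and tie basement membranes to the matrix beside them. None was called against wild type. The gene col18a1a averaged 101 ± 19.1 CPM over prkdc mutants, 56.7 ± 15.2 CPM over il2rga mutants, 55.8 ± 35.7 CPM over double mutants and 84.2 ± 28.7 CPM over wild type (SD, n = 3 each), and its groups overlapped. Its paralogue col18a1b was lower in all 3 il2rga mutants, at 6.09, 6.19 and 4.89 CPM, than in wild type, at 12.5, 12.2 and 10.98 CPM, with a log2 fold change of -1.05 ± 0.28 that just missed the threshold (edgeR adjusted p = 0.0508). In col15a1b double mutants had 0.341, 1.30 and 2.29 CPM and prkdc mutants 5.27, 4.36 and 3.96 CPM, a fall of 1.80 ± 0.53 log2 (edgeR quasi-likelihood test, adjusted p = 0.0450), and it was -1.64 ± 0.53 against wild type (adjusted p = 0.0592).

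Fibrillar collagens followed in direction, with fewer calls and more spread. Their median log2 fold changes against wild type were -0.38 for prkdc mutants, -1.21 for il2rga mutants and -1.11 for double mutants. Those of the 9 basement membrane collagens, types XV and XVIII included, were -0.02, -1.12 and -1.48. In il2rga mutants the basement membrane median was thus not the lower of these 2 classes. COL5A1 and col27a1b fell in double mutants against wild type and COL5A1 fell against prkdc mutants, while no fibrillar gene was called by edgeR in il2rga or prkdc mutants against wild type. At an unadjusted p under 0.05 there were 5 of 10 in il2rga mutants, beside 23.8% of all genes, and 1 of 10 in prkdc mutants. Over all 35 collagens DESeq2 and limma voom called 14 and 15 in il2rga mutants, where they called 2400 and 2626 of all 18370 genes.

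Type I collagen, the main fibre of bone, skin and tendon, is encoded by 3 members. COL1A1 (ENSDARG00000035809) had 242, 221 and 206 CPM in prkdc mutants, 178, 81.4 and 151 CPM in il2rga mutants, 76.4, 51.5 and 226 CPM in the double mutants, and 216, 409 and 227 CPM in wild type. Its paralogue col1a1a (ENSDARG00000012405) had 148, 170.0 and 119 CPM in prkdc mutants, 97.7, 28.8 and 111 CPM in il2rga mutants, 47.6, 25.9 and 163 CPM in the double mutants, and 133, 482 and 109 CPM in wild type. COL1A2 (ENSDARG00000020007) had 197, 169 and 156 CPM in prkdc mutants, 119, 41.4 and 93.4 CPM in il2rga mutants, 50.1, 35.7 and 168 CPM in the double mutants, and 188, 367 and 154 CPM in wild type. Wild type 2 was high and il2rga mutant 2 and double mutants 1 and 2 were low in all 3 genes, while double mutant 3 lay among the wild-type libraries.

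The 3 type I genes had log2 fold changes of -1.06 ± 0.50, -1.61 ± 0.77 and -1.48 ± 0.58 in il2rga mutants against wild type for COL1A1, col1a1a and COL1A2, and none was called (smallest edgeR adjusted p = 0.151). For double mutants against wild type they were -1.27 ± 0.50, -1.61 ± 0.77 and -1.49 ± 0.58 (smallest edgeR adjusted p = 0.104). Leaving out wild type 2 gave a median over the 3 of -0.73 for il2rga mutants and -0.91 for double mutants, beside -1.48 and -1.49 with it. Without double mutant 3 it was -2.48 for double mutants, and all 3 genes were then called, where 17.1% of all genes were.

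COL5A1 (ENSDARG00000012593), whose chain helps to start type I fibrils and sets their width, separated more cleanly. It had 50.6, 53.1 and 47.5 CPM in prkdc mutants, 26.1, 15.9 and 18.9 CPM in il2rga mutants, 17.96, 17.6 and 31.0 CPM in the double mutants, and 38.4, 56.3 and 33.8 CPM in wild type. All 6 libraries with the il2rga mutation lay below all 6 without it. It fell by 0.95 ± 0.28 log2 in double mutants against wild type (edgeR quasi-likelihood test, adjusted p = 0.0464) and by 1.19 ± 0.28 against prkdc mutants (adjusted p = 0.0245), and was -1.08 ± 0.29 in il2rga mutants against wild type (adjusted p = 0.0503). Its partner COL5A2 was not called in any comparison, with log2 fold changes of -0.70 ± 0.34 in il2rga mutants and -0.88 ± 0.34 in double mutants against wild type.

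The gene col27a1b, a fibrillar collagen known from cartilage in mammals and zebrafish, had 2.73, 1.92 and 1.49 CPM in il2rga mutants and 0.796, 2.3 and 2.44 CPM in double mutants, against 5.51, 4.51 and 6.35 CPM in wild type. It fell by 1.56 ± 0.46 log2 in double mutants (edgeR quasi-likelihood test, adjusted p = 0.0441) and was -1.41 ± 0.46 in il2rga mutants (adjusted p = 0.0935). The type V gene col5a3a was the only fibrillar collagen tested that was higher in all 3 double mutants, at 9.09, 4.50 and 3.67 CPM, than in all 3 il2rga mutants, at 2.73, 1.92 and 1.49 CPM, a difference of 1.49 ± 0.46 log2 that was not called (edgeR adjusted p = 0.506). In the deposited table both genes have the same counts in il2rga mutants 1 to 3, namely 13, 18 and 7.

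Several low genes stood highest in wild type 2. COL11A2, a chain of cartilage fibrils, had 1 count in the prkdc mutants together and 68 counts in wild type, a ratio of wild type over prkdc mutants of 63.9 with an exact 95% interval of 11.1 to 2560 that covers counting error only. Wild type 2 alone stood at 7.80 CPM, beside 0.393 CPM in wild type 1 and 0.00 in wild type 3. The same library was the highest of wild type in COL2A1 (ENSDARG00000011407; 11.3 CPM beside 4.42 and 3.34), col11a1b (23.4 CPM beside 7.38 and 5.70), col5a2b (6.46 CPM beside 0.0983 and 0.108) and the network collagen COL10A1 (ENSDARG00000054753; 15.0 CPM beside 0.0983 and 0.00). None of the tested ones among these genes was called. Without wild type 2 the log2 fold changes of COL11A2 and COL10A1 in il2rga mutants against wild type were 2.80 and 4.24, beside -0.81 and -1.98 with it. Without wild type 2 the median of the fibrillar class was 0.26 for prkdc mutants, -0.65 for il2rga mutants and -0.62 for double mutants.

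**Figure D3:**
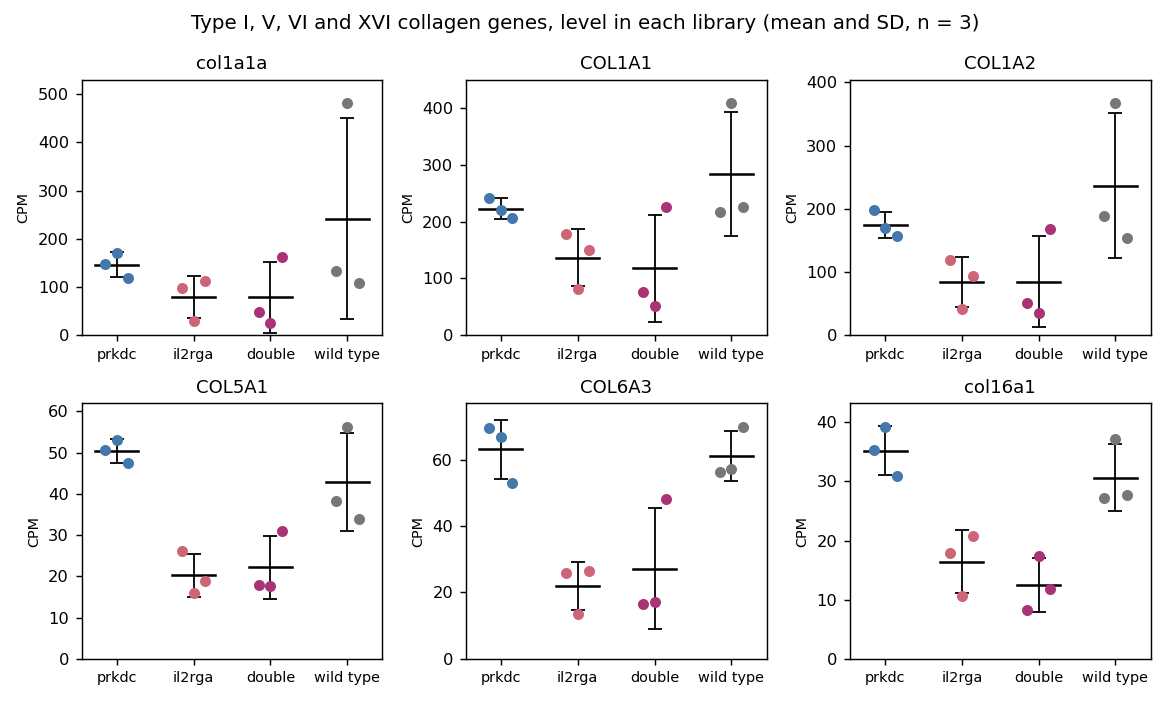
Each panel plots 1 gene of type I, V, VI or XVI collagen in CPM on an axis from 0, with 1 point a library, the group mean as a line and the SD as bars (n = 3). In the type I genes of the upper row wild type 2 and double mutant 3 lie far above the rest of their groups, while COL5A1, COL6A3 and col16a1 in the lower row separate il2rga and double mutants from prkdc mutants and wild type without overlap.

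Among the other collagens, the genes called between 2 groups were of the fibril-associated, anchoring and transmembrane kinds. These calls in double mutants were col16a1, COL14A1 and col7a1 against wild type, and col16a1 and col23a1a against prkdc mutants, all lower. None of the 16 tested was called by edgeR in il2rga mutants against wild type, where 8 had an unadjusted p under 0.05. The class medians against wild type were -0.95 for il2rga mutants and -1.19 for double mutants.

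The FACIT gene col16a1 (ENSDARG00000009194) had 35.4, 39.3 and 30.9 CPM in prkdc mutants, 17.9, 10.6 and 20.9 CPM in il2rga mutants, 8.30, 17.4 and 11.8 CPM in the double mutants, and 27.1, 37.1 and 27.7 CPM in wild type. The 6 libraries with the il2rga mutation lay below the 6 without it. It fell by 1.29 ± 0.31 log2 in double mutants against wild type (edgeR quasi-likelihood test, adjusted p = 0.0250) and by 1.49 ± 0.31 against prkdc mutants (adjusted p = 0.0170).

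COL14A1 (ENSDARG00000005762), which binds the surface of fibrils, had 16.7, 20.4 and 7.20 CPM in prkdc mutants, 6.51, 8.97 and 4.68 CPM in il2rga mutants, 3.86, 7.501 and 7.18 CPM in the double mutants, and 30.4, 14.2 and 16.3 CPM in wild type. Prkdc mutant 3 lay among the il2rga and double mutants. The gene fell by 1.72 ± 0.45 log2 in double mutants against wild type (edgeR quasi-likelihood test, adjusted p = 0.0321) and was -1.58 ± 0.45 in il2rga mutants (adjusted p = 0.0630). The skin anchoring-fibril gene col7a1 averaged 2.50 ± 0.62 CPM in double mutants and 7.37 ± 2.80 CPM in wild type (SD, n = 3 each), a fall of 1.55 ± 0.41 log2 (edgeR adjusted p = 0.0331). The transmembrane collagen col23a1a averaged 5.27 ± 1.33 CPM in double mutants and 13.2 ± 4.11 CPM in prkdc mutants, a fall of 1.32 ± 0.36 log2 (edgeR adjusted p = 0.0368).

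Type VI collagen forms beaded filaments around stromal, muscle and fat cells. Each of its 4 genes was lower in the 3 il2rga mutants than in any wild-type fish, as were 16% of all genes tested. In col6a4a the gap was narrow, with 96.0 CPM in il2rga mutant 1 and 97.1 CPM in wild type 2. The median log2 fold change of the 4 genes was -1.19, and edgeR called none of them (smallest edgeR adjusted p = 0.0542). COL6A3 (ENSDARG00000077139) had 69.5, 66.8 and 53.0 CPM in prkdc mutants, 25.8, 13.5 and 26.4 CPM in il2rga mutants, 16.4, 17 and 48.1 CPM in the double mutants, and 56.3, 57.3 and 70.0 CPM in wild type. It was the only type VI gene called in the test of any difference among the 4 groups (edgeR quasi-likelihood F test, adjusted p = 0.0404), where 8 of 35 collagens were called beside 14.1% of all genes.

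The other 3 type VI genes differed in their overlap. For col6a4a the levels were 176, 106 and 161 CPM in prkdc mutants, 96.0, 48.4 and 80.8 CPM in il2rga mutants, 55.4, 58.5 and 96.1 CPM in the double mutants, and 121, 97.1 and 199.8 CPM in wild type. For col6a1 they were 166, 95.7 and 139 CPM in prkdc mutants, 84.0, 47.3 and 86.8 CPM in il2rga mutants, 49.2, 40.0 and 171 CPM in the double mutants, and 146, 105 and 147 CPM in wild type. In COL6A2 prkdc mutants had 149, 73.9 and 104 CPM, il2rga mutants 48.3, 26.4 and 52.8 CPM, the double mutants 31.2, 23.1 and 117 CPM, and wild type 144, 100.4 and 151 CPM. In col6a4a the 6 libraries with the il2rga mutation lay below the 6 others, whereas in col6a1 and COL6A2 they overlapped. Double mutant 3 was the highest double mutant in all 4 type VI genes; it lay within the wild-type range of COL6A2 and above that of col6a1.

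The remaining collagens were not called in any comparison. The network collagens COL8A1 and COL8A2, found in vessel walls, had log2 fold changes of 1.22 ± 0.88 and 0.02 ± 0.37 in il2rga mutants against wild type, and col28a1b, a relative known from peripheral nerve in mammals, was at 0.26 ± 1.28; these 3 were the only tested collagens above 0 there. COL12A1 (ENSDARG00000078322), a tendon FACIT, had 31.8, 17.7 and 6.60 CPM in prkdc mutants, 55.9, 11.1 and 5.96 CPM in il2rga mutants, 13.3, 29.5 and 7.64 CPM in the double mutants, and 12.2, 72.7 and 60.0 CPM in wild type. Its groups overlapped, and it had the smallest p of its class in prkdc mutants, at -1.37 ± 0.93 log2 (edgeR adjusted p = 1.00).

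In all, 12 of the 39 members had every library with the il2rga mutation below every library without it, where 6.74% of all genes tested did so. These were COL4A1, COL4A2, col4a3, COL4A4, col4a6 and col15a1b of the basement membrane, COL5A1 and col27a1b of the fibrillar class, and col6a4a, COL6A3, col16a1 and col23a1a of the others. No member had all 6 higher, where 4.65% of all genes tested did.

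The proportion of partner chains was set side by side within libraries, which removes any scaling factor of the library. COL4A1 over COL4A2 was 3.63, 2.21 and 3.66 in double mutants 1 to 3, beside 1.55 to 2.198 in il2rga mutants, 1.87 to 2.47 in prkdc mutants and 1.71 to 2.09 in wild type, so double mutants 1 and 3 stood above the other libraries. The ratio of col4a3 to COL4A4 lay between 1.45 and 2.26 in all 12 libraries, with overlapping groups. For col4a5 over col4a6 the il2rga mutants had 2.37, 1.91 and 1.23 and the double mutants 1.88, 2.27 and 0.684, while prkdc mutants had 0.487 to 0.762 and wild type 0.530 to 0.724. Double mutant 3 thus lay within the wild-type range and the other 5 libraries with the il2rga mutation above it.

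For col6a1 over COL6A2 the ratio was 1.73 ± 0.08 in il2rga mutants, 1.59 ± 0.14 in double mutants, 1.25 ± 0.11 in prkdc mutants and 1.01 ± 0.03 in wild type (SD, n = 3 each). All 6 libraries with the il2rga mutation, from 1.45 to 1.79, lay above the prkdc mutants, from 1.12 to 1.33, which in turn lay above wild type, from 0.976 to 1.04. In the GRCz12tu assembly of RefSeq each of the 3 type IV pairs sits on the same chromosome with 1 annotated gene, a long noncoding RNA, between its members, and col6a1 and COL6A2 are separated by 2 genes, 1 of them protein-coding. CPM values are not divided by transcript length, so a ratio compares libraries and not the amounts of the chains.

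**Figure D4:**
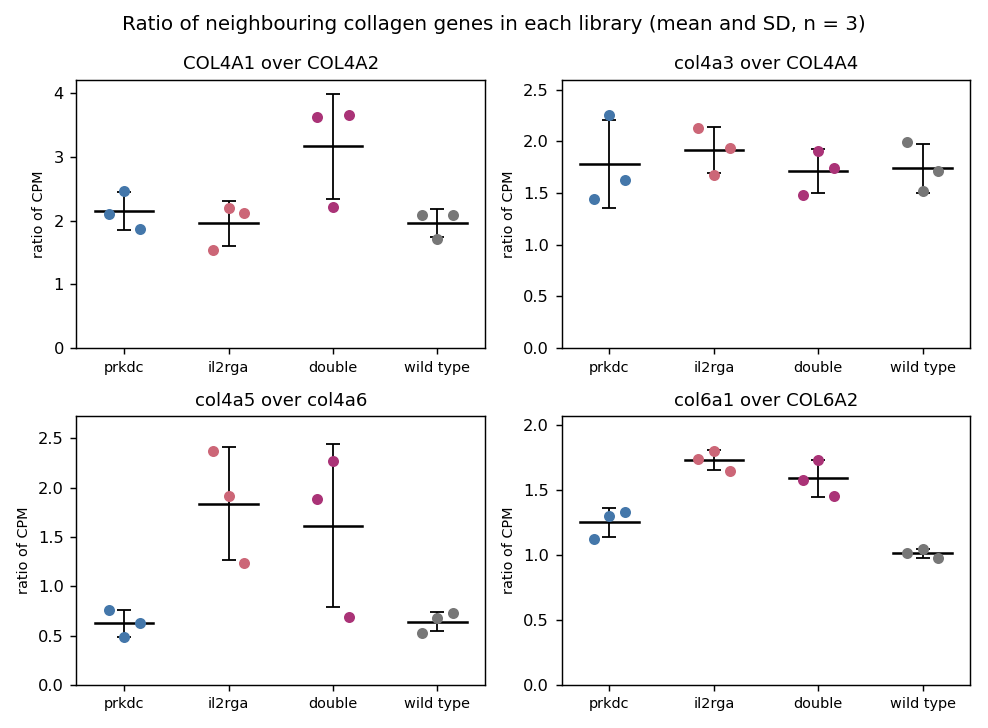
Each panel plots the ratio of the CPM of neighbouring collagen genes on an axis from 0, with 1 point a library, the group mean as a line and the SD as bars (n = 3). The ratio of col6a1 to COL6A2 is 1.45 to 1.79 in il2rga and double mutants and 0.976 to 1.33 in prkdc mutants and wild type, while that of col4a3 to COL4A4 overlaps between all groups.

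Gene lists around the collagens are read against the same background of all genes tested: 3.59% fell and 2.22% rose in il2rga mutants against wild type, 7.51% and 6.80% in double mutants against wild type, and 6.86% and 7.93% in double against prkdc mutants. At an unadjusted p under 0.05 there were 5.73% of all genes in prkdc, 23.8% in il2rga and 32.4% in double mutants against wild type.

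Other genes that build basement membranes were lower in the same groups. Of 18 measured laminin, nidogen, perlecan, agrin and peroxidasin genes, 3 fell in il2rga mutants and 5 in double mutants against wild type, 5 fell in double mutants against prkdc mutants, and none rose. The list's median log2 fold changes were -0.72, -0.99 and -1.12, beside 0.06, 0.05 and 0.03 over all genes. HSPG2, which encodes perlecan, had 69.7, 66.7 and 63.7 CPM in prkdc mutants, 32.4, 21.9 and 15.3 CPM in il2rga mutants, 14.8, 29.8 and 32.4 CPM in the double mutants, and 118, 63.0 and 86.6 CPM in wild type. It fell by 1.95 ± 0.35 log2 in il2rga mutants (edgeR quasi-likelihood test, adjusted p = 0.0136) and by 1.80 ± 0.35 in double mutants against wild type (adjusted p = 0.0120). AGRN, which encodes agrin, fell by 1.19 ± 0.24 and 1.08 ± 0.24 (edgeR adjusted p = 0.0213 and 0.0195).

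The enzymes and chaperones that make collagen had few calls. Of 36 measured genes for prolyl and lysyl hydroxylases, chaperones, procollagen proteinases and lysyl oxidases, none was called by edgeR against wild type in any mutant, and 1, 5 and 4 had an unadjusted p under 0.05 in prkdc, il2rga and double mutants. Their median log2 fold changes were -0.20 in il2rga mutants and 0.01 in double mutants. Set against prkdc mutants, double mutants had 2 that fell, P3H2 at -1.096 ± 0.25 and P4HA1 at -1.87 ± 0.53 log2 (edgeR adjusted p = 0.0220 and 0.0404), both encoding prolyl hydroxylases. P4HB, a subunit of prolyl hydroxylase that also serves other secreted proteins, had a log2 fold change of 0.63 ± 0.36 in double mutants against wild type.

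Of 15 genes of collagen breakdown, 2 rose and 2 fell in il2rga mutants against wild type. MMP2, a gelatinase, had 85.5, 67.9 and 75.1 CPM in prkdc mutants, 48.1, 41.1 and 48.9 CPM in il2rga mutants, 39.1, 44.8 and 52.7 CPM in the double mutants, and 78.8, 77.7 and 78.8 CPM in wild type. It fell by 0.77 ± 0.17 log2 in il2rga mutants and by 0.78 ± 0.17 in double mutants against wild type (edgeR adjusted p = 0.0259 and 0.0162). MMP14 (ENSDARG00000008388), a membrane-bound collagenase, rose by 0.78 ± 0.18 log2 in il2rga mutants (edgeR adjusted p = 0.0296). The collagenase gene mmp13a had 381, 237 and 1160.0 CPM in prkdc mutants, 776, 1101 and 2116 CPM in il2rga mutants, 632, 678 and 225 CPM in the double mutants, and 252, 265 and 136 CPM in wild type. It rose by 2.61 ± 0.65 log2 in il2rga mutants against wild type (edgeR adjusted p = 0.0433). TIMP4 (ENSDARG00000102617), an inhibitor of metalloproteinases, fell by 2.26 ± 0.55 log2 in il2rga mutants against wild type (edgeR adjusted p = 0.0381). Its levels were 104.3, 52.6 and 83.9 CPM in prkdc mutants and 51.9, 72.2 and 22.8 CPM in il2rga mutants. They were 108.9, 63.2 and 101.7 CPM in the double mutants and 338, 288 and 80.9 CPM in wild type. Wild type 3 thus lay within the ranges of the prkdc and double mutants.

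Among 12 collagen receptor genes 4 fell in double mutants against wild type, and edgeR called none in il2rga mutants, where 5 had an unadjusted p under 0.05. DDR1, a receptor kinase that binds collagen, averaged 38.9 ± 15.1 CPM in double mutants and 84.4 ± 9.53 CPM in wild type (SD, n = 3 each), a fall of 1.12 ± 0.27 log2 (edgeR adjusted p = 0.0249). ITGA1, an integrin chain that binds type IV collagen, fell by 0.82 ± 0.19 in double mutants (adjusted p = 0.0218). Of 32 other genes of the interstitial matrix, 2 rose and 1 fell in il2rga mutants, and 2 rose and 4 fell in double mutants against wild type, while 1 rose and 7 fell in double against prkdc mutants. The list's medians were -0.37, -0.52 and -0.60, with 20, 22 and 21 of the 32 below 0. TNC (ENSDARG00000021948), which encodes the matrix glycoprotein tenascin, fell by 1.44 ± 0.31 log2 in il2rga mutants against wild type (edgeR adjusted p = 0.0253). The elastin gene elnb fell by 1.87 ± 0.52 and the thrombospondin gene THBS4 (ENSDARG00000020072) by 2.65 ± 0.66 in double mutants against wild type (edgeR adjusted p = 0.0372 and 0.0272). MFAP4 (ENSDARG00000090783) rose by 2.42 ± 0.60 in il2rga mutants against wild type (edgeR adjusted p = 0.0421). The list holds several gene IDs of this symbol, placed there by symbol alone. Whether matrix-making cells or blood cells expressed them was not tested, and the list's counts and medians include them. FBLN1, which encodes fibulin of elastic fibres and basement membranes, rose by 2.73 ± 0.46 log2 in il2rga mutants and by 2.02 ± 0.46 in double mutants (edgeR adjusted p = 0.0114 and 0.0204), at 7.23 to 10.04 CPM and 2.90 to 7.62 CPM, against 0.787 to 2.15 CPM in wild type.

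Fibrogenic signals and the cells that could make these collagens were followed by their own lists. Of 18 fibrogenic signal genes edgeR called none in il2rga mutants (8 at an unadjusted p under 0.05), and 1 rose and 4 fell in double mutants against wild type. Of 18 stromal genes edgeR called none in il2rga mutants (5 at an unadjusted p under 0.05) and 1 fell in double mutants against wild type, CSPG4 of pericytes, at -2.79 ± 0.58 log2 (edgeR adjusted p = 0.0147); the list's medians were 0.47 and 0.30. In double against prkdc mutants its median was -0.54 with 12 of 18 below 0, and 3 fell: CSPG4 by 2.88 ± 0.58, PDGFRB by 1.76 ± 0.48 and NOTCH3 by 1.00 ± 0.30 log2 (edgeR adjusted p = 0.0147, 0.0350 and 0.0488). Of 11 podocyte genes edgeR called none against wild type (4 at an unadjusted p under 0.05 in il2rga and 4 in double mutants). Their medians were -0.52 in il2rga mutants and -0.65 in double mutants, with 10 of the 11 below 0 in each. All 11 were below 0 in double against prkdc mutants. Over all genes 46.5%, 47.4% and 48.4% lay below 0 in these comparisons. Of 14 endothelial genes 1 rose and 1 fell in il2rga mutants and 4 fell in double mutants against wild type, with medians of 0.08 and -0.39 and with 6 and 9 of the 14 below 0. EGFL7, a secreted factor of endothelium, had 25.8, 22.9 and 21.3 CPM in il2rga mutants, against 14.95, 11.1 and 12.3 CPM in wild type, and rose by 0.87 ± 0.20 log2 (edgeR adjusted p = 0.0339). KDR, the receptor of vascular growth factor, had 137, 204 and 203 CPM in prkdc mutants, 60.7, 52.3 and 43.4 CPM in il2rga mutants, 33.3, 37.3 and 51.5 CPM in the double mutants, and 188, 143 and 191 CPM in wild type. It fell by 1.74 ± 0.24 log2 in il2rga mutants and by 2.1 ± 0.24 in double mutants against wild type (edgeR adjusted p = 0.00585 and 0.00248). In the same order against wild type, edgeR called none of 10 smooth muscle (medians 0.06 and -0.43), 7 bone and cartilage (-0.62 and -0.64) and 13 nerve genes (0.10 and -0.62). Of 21 tubule genes 2 rose in il2rga mutants, and 3 rose and 2 fell in double mutants (-0.20 and -0.15). Of 7 skin genes 1 rose in double mutants (0.76 and 0.30). EdgeR called none of them in prkdc mutants, where the median was 2.52 and 5 had an unadjusted p under 0.05. In double against prkdc mutants 3 skin genes fell (median -2.58). There 1 podocyte, 4 endothelial, 1 smooth muscle and 1 bone and cartilage gene also fell (-0.68, -0.48, -0.70 and -0.48). Of the nerve genes 1 rose (-0.47), and of the tubule genes 1 rose and 1 fell (-0.22).

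The genes with very long transcripts were lower in the same groups as the collagens. Of 67 measured, 32 fell in il2rga mutants and 39 in double mutants against wild type and none rose, with medians of -0.90 and -0.91, and against prkdc mutants 29 fell and 1 rose in double mutants. Of the 22 liver genes 1 rose in il2rga mutants and 14 rose in double mutants against wild type. Of 18 ovary and yolk genes edgeR called none in il2rga mutants and 3 rose in double mutants against wild type, with medians of 1.92 and 5.80. Among il2rga mutants, number 3 was low in liver transcripts (2.58) and low in type IV collagen, with a mean log2 CPM over the 6 type IV genes of 4.29, beside 4.72 and 4.35 in il2rga mutants 1 and 2 and 5.499 to 5.84 in wild type. Among double mutants, number 3 had the least liver transcripts and the highest type IV mean, 4.81, beside 3.70 and 4.28 in numbers 1 and 2.

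When the 4 libraries richest in liver transcripts were left out, which leaves il2rga mutant 3 and double mutant 3 alone in their groups and assumes that each varies like the prkdc mutants and wild type, no collagen was called in any comparison. The log2 fold changes of the collagens were then below 0 for 35 of 37 in il2rga mutants and 33 of 37 in double mutants against wild type, and for 26 of 37 in double mutants against prkdc mutants, with medians of -1.31, -0.78 and -0.38. Those of the 6 type IV genes were all below 0 in the 3 comparisons, with medians of -1.47, -0.88 and -0.87. Over all genes 0.116%, 0.00% and 0.00% were then called, so the lack of calls says little about how the collagens depend on these libraries. Type I and VI medians in double against prkdc mutants were then 0.03 and -0.14, beside -0.92 and -1.01 with all libraries. Using the liver list as a covariate, no collagen and 0.120%, 0.00% and 0.00% of all genes were called. The type IV medians were then -1.16, -1.26 and -1.25, and those of type I were -0.46, -0.23 and 0.19. The liver list means were 5.47 to 8.54 in double mutants and 1.63 to 3.13 in prkdc mutants and wild type. Without overlap in the covariate, the double mutant values are extrapolations. They do not show how either type depends on liver tissue. The part of RNA quality and liver tissue in the collagen differences was not otherwise tested.

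**Figure D5:**
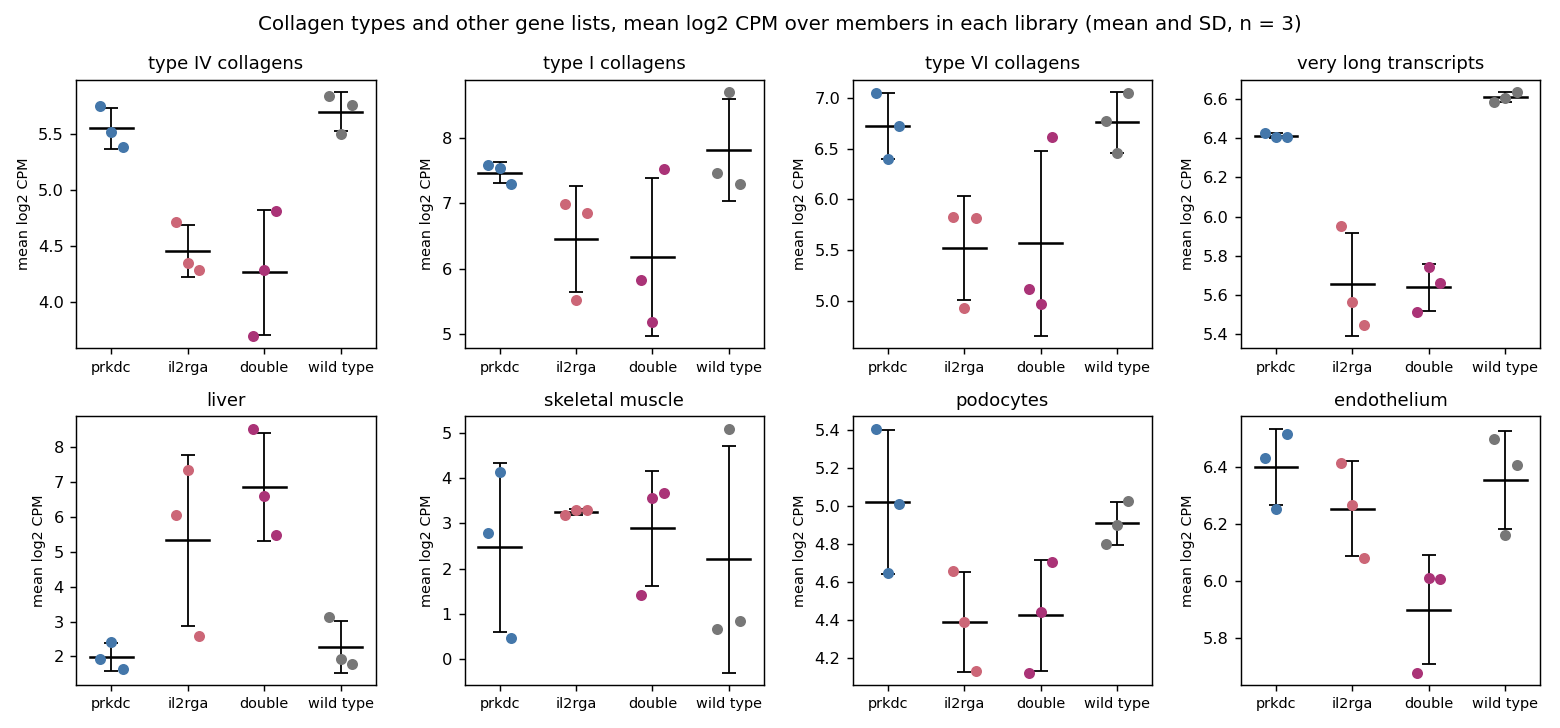
Each panel plots the mean log2 CPM over the tested genes of 1 list, with 1 point a library, the group mean as a line and the SD as bars (n = 3); axes do not start at 0. Type IV collagens and very long transcripts separate il2rga and double mutants from prkdc mutants and wild type without overlap, double mutant 3 is high in type I and VI collagens, and in the liver, podocyte and skeletal muscle panels the 6 libraries with the il2rga mutation overlap the 6 without it.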

How the data were processed

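The data are poly(A) RNA-seq libraries of 12 zebrafish kidneys, made per the labels' protocols from 100 ng RNA with 15 PCR cycles and a directional kit. The authors deposited raw counts per Ensembl gene; the submitters' processing notes name STAR, Picard, featureCounts and GRCz10, whereas their versions, the annotation and the strand setting are not stated. How reads shared between near-identical copies were counted is not given in the sources used here, so paralogues such as COL1A1 and col1a1a or both COL12A1 genes are uncertain to that extent. Symbols came from a table of Ensembl names, which covered 26269 of the 32105 IDs.

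Members and lists were chosen with earlier results of these data known, and that of very long transcripts followed once the counts were at hand. Counts were filtered with filterByExpr and fitted with edgeR 4.0.16 (R 4.3.3; TMM, glmQLFit robust, 4 group means over 12 libraries, 2-sided glmQLFTest, Benjamini-Hochberg over 18370 genes); printed CPM are TMM-scaled, the 0.5 limit used unscaled CPM, and log2 means took a prior count of 2. The SE given with a log2 fold change is its absolute value divided by the square root of the quasi-likelihood F statistic. It is worked back from the test and was not estimated by the fit itself. The common biological coefficient of variation was 0.418. Replicates differed by more than counting noise (chi-square per degree of freedom 20.6 to 87.2), so each was kept as a sample of its own. The fit was also run on simulated counts with the same spread for all genes, smaller than the common spread of the data. That run does not show how the fit performs at the spread of these libraries. The rule for naming genes with values in every library took the 3 most abundant members of each class and up to 6 called members per direction and comparison. It also took the member of smallest p where a class had no call against wild type, and up to 3 called genes per list or its most abundant one. It was not followed in full, since col18a1a is given as means, several list genes lack library values and not every called list gene is named. The other named genes were chosen after their values were seen.

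Alternatives were DESeq2 1.42.0, limma 3.58.1 voom with quality weights, DESeq2 size factors, no filter, only the groups compared, a replicate block, a limit of 1.0 CPM, type IV alone as a class, a liver covariate, and leaving out libraries. Titles share replicate numbers, but no label says what a number marks. Deviations of same-numbered libraries correlated above 0.1 in 6 of 18 pairs, and in all 3 pairs only between il2rga and double mutants (0.121 to 0.519). Pairs of unlike number between these 2 groups ran from -0.4337 to 0.4175. The highest was il2rga mutant 2 with double mutant 1. These correlations do not show that the numbers pair animals. No sequences or gene lengths were used. Protein sequence features, planned at first, were not analysed here.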

Additional observations from a re-analysis of the deposited data

How the results depend on the processing

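Collagen counts depended on the test and on single libraries. The median log2 fold change of the collagens stayed below 0 in 20 of 20 settings for il2rga mutants (-1.31 to -0.91) and double mutants (-1.51 to -0.69) against wild type and for double against prkdc mutants (-1.52 to -0.38). For prkdc mutants against wild type it also stayed below 0 in 20 of 20 settings (-0.23 to -0.03). None of the 3, 9 and 8 calls in il2rga mutants against wild type, double mutants against wild type and double against prkdc mutants changed sign. Of the 35 collagens tested, 5, 8 and 13 did in at least 1 setting, and 18 did in prkdc mutants against wild type. The genes of the other lists were not followed across settings. In double against prkdc mutants the type I median of -0.92 was 0.19 with the liver covariate and 0.03 without the 4 liver-rich libraries. The type VI median of -1.01 was 0.10 and -0.14. The liver list means of double and prkdc mutants do not overlap, so the covariate values are extrapolations. For il2rga and double mutants against wild type, double against prkdc mutants and the test over 4 groups, edgeR called 3, 9, 8 and 8 collagens, DESeq2 14, 15, 14 and 17, and limma voom 15, 16, 17 and 20. Of all 18370 genes edgeR called 1066, 2628, 2717 and 2588 in that order, DESeq2 2400, 4078, 4176 and 5045, and limma voom 2626, 2975, 3396 and 4232. Beside 942, 1018 and 236 of all genes, fits of only the groups compared called 7, 1 and 0 collagens. All 4 counts were 0 once the 4 liver-rich libraries were dropped or the liver covariate was added, but in that order these fits called only 22, 0, 0 and 11, and 22, 0, 0 and 7, of all genes, so the zeros say little of the collagens. DESeq2 size factors left them at 3, 9, 8 and 8. Over all genes DESeq2 and limma voom called 139 and 26 in prkdc mutants against wild type, where edgeR called 0.

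Leaving out 1 library gave 0 to 12 calls in il2rga mutants, 1 to 22 in double mutants, 1 to 17 in double against prkdc mutants and 3 to 18 over the 4 groups, and 0 to 0 in the other comparisons. In il2rga mutants, dropping wild type 1 or 3, or il2rga mutant 2 or 3, left 0, wild type 2 or prkdc mutant 3 left 1, il2rga mutant 1 left 2, double mutant 1 gave 7 and double mutant 3 gave 12. In double mutants against wild type, dropping double mutant 1 or wild type 3 left 1, wild type 1 left 2, double mutant 2 left 3, wild type 2 left 5, prkdc mutant 3 left 6, and double mutant 3 gave 22. Against prkdc mutants, dropping double mutant 1 left 1, prkdc mutant 1 left 3, prkdc mutant 2 or 3 left 4, double mutant 2 left 5, and double mutant 3 gave 17. Over the 4 groups, dropping wild type 3 left 3, double mutant 1 or wild type 1 left 5, and double mutant 3 gave 18. Over all genes the calls shifted too, to between 160 and 1565 in il2rga mutants, beside 1066 with all libraries. They lay between 490 and 3268 in double mutants against wild type (2628 with all libraries) and between 382 and 2946 against prkdc mutants (2717). Over the 4 groups they lay between 1004 and 3233 (2588). Each lowest all-gene count came without wild type 3 or double mutant 1, and each highest without double mutant 3. The cause of these shifts was not tested.

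With the replicate number as a block, 1 collagen was called in il2rga mutants against wild type in place of 3. Between double and il2rga mutants 0 were called with the block. The block moved no other collagen count by over 1.5 times. Depth limits the genes near 0.5 CPM: 4 members failed the count filter and were not tested.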
